A study of Mus musculus with 60 samples.

Results

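Kcnq1ot1, Malat1, Neat1, Meg3 and H19 are 5 long noncoding RNA genes whose transcripts have been studied mainly for what the RNA itself does. They were followed in the lung, liver and forestomach of mice given the polycyclic aromatic hydrocarbon benzo(ghi)perylene (BghiP) by mouth. The genes were chosen by their log2 ratios over the 3 tissues and 4 doses on these same 60 arrays, with earlier results known, and their probes were found by symbol. Their values are therefore given as a description. How many of their probes a fit across all probes called is counted beside the share of all probes called, and nothing is read from those counts. They are 5 of the 20019 genes that the arrays name, and 25 of 55681 probes belonged to them: 7 to Kcnq1ot1, 4 to Malat1, 6 to Neat1, 3 to Meg3 and 5 to H19. RefSeq accessions named 7 of these probes and the array design's own names (H19, NEAT1, NEAT2 for Malat1, KCNQ1ot1) named the other 18.

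The animals were male Muta Mouse, a transgenic strain that carries a bacterial lacZ reporter for mutations in all groups, aged about 10 weeks. Each mouse was gavaged every day for 28 days with olive oil alone (D0) or with BghiP in olive oil at 6.25 (D1), 12.5 (D2) or 25 (D3) mg/kg-bw/day, and tissues were taken 72 h after the final dose. Lung, liver and forestomach of the same 5 mice per dose were hybridised on 2-colour arrays (20 mice, 60 arrays), with tissue RNA in the Cy5 channel and a universal mouse reference RNA pooled from cell lines in the Cy3 channel. All values below are loess-normalized log2 ratios of Cy5 over Cy3 (called log2 ratio), so 0 means as much signal as the reference for that probe, and levels of different probes are not compared with each other. Mice are numbered 1 to 5 in D0, 6 to 10 in D1, 11 to 15 in D2 and 16 to 20 in D3, and values of single mice are given in that order.

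Malat1 RNA gathers in nuclear speckles, bodies rich in splicing factors, and Neat1 RNA is the scaffold around which proteins such as NONO and SFPQ assemble paraspeckles. Kcnq1ot1, Meg3 and H19 come from imprinted clusters, in which each is transcribed from a single parental chromosome: Kcnq1ot1 is the paternal transcript that silences its neighbours in cis, Meg3 is the maternal transcript of the Dlk1 cluster, and H19 is the maternal transcript beside Igf2. H19 is abundant in fetal liver and muscle and low in most adult tissues, and much of it is cytoplasmic. The arrays measured RNA of whole tissue, so nothing here separates nuclear from cytoplasmic RNA, and fewer cells of a type cannot be told apart from less RNA per cell.

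Promoter sequences from RefSeq (GRCm38.p6, 250 bases before to 50 after the transcript start) were held for 3 of the 5 genes, Kcnq1ot1, Malat1 and Meg3. They are shown because a gavaged hydrocarbon can act through the aryl hydrocarbon receptor, whose core motif is GCGTG, and because CCAAT boxes belong to the known Kcnq1ot1 promoter. Both strands were searched for each motif, and capitals mark CCAAT or its reverse complement ATTGG.
Kcnq1ot1, chr7:143296498-143296797, minus strand: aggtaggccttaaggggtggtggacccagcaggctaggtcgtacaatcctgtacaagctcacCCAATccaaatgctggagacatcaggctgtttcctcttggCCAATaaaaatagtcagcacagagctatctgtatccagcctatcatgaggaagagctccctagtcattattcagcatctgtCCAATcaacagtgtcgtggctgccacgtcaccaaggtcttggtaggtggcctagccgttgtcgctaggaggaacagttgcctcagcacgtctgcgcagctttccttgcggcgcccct
Malat1, chr19:5802623-5802922, minus strand: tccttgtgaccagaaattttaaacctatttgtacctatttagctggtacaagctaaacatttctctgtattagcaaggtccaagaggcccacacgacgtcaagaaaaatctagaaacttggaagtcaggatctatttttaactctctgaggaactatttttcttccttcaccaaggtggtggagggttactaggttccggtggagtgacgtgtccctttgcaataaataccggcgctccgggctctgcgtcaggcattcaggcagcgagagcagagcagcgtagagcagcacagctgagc
Meg3, chr12:109540746-109541045, plus strand: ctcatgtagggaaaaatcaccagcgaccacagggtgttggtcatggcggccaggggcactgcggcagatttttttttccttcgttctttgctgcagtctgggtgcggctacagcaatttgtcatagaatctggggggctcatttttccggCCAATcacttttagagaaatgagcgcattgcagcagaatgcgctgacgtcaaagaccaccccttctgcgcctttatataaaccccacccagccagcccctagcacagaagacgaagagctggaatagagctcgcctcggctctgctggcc

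The Kcnq1ot1 window held CCAAT 3 times, at positions 63, 103 and 184 of the 300 bases shown, the Meg3 window once and the Malat1 window 0 times. RefSeq held a second Meg3 window, chr12:109545148-109545447, which is not shown and held CCAAT 0 times. Of 32851 mouse promoter windows of this length, 37.4% held CCAAT on either strand and 3.37% held it at least 3 times. GCGTG or its reverse complement CACGC was in 0 of the 4 windows and in 32.4% of all promoter windows, which says only that these letters are not in the bases searched. A match is a description of the sequence and not a measured binding site.

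H19 and Meg3 also carry microRNAs inside their transcribed spans, so their probes report on the host transcripts of the mature sequences below, while the microRNAs themselves were not measured. Capitals mark the seed, bases 2 to 8.
H19, miR-675-5p, chr7:142577112-142577133, minus strand: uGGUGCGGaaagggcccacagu
H19, miR-675-3p, chr7:142577078-142577099, minus strand: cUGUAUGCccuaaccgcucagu
Meg3, miR-1906, chr12:109544588-109544609, plus strand: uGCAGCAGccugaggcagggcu
Meg3, miR-770-5p, chr12:109563710-109563731, plus strand: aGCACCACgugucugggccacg
Meg3, miR-770-3p, chr12:109563744-109563765, plus strand: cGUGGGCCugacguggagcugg
These 5 seeds all differ. The seed of miR-1906 is found in 2 mature mouse microRNA entries in RefSeq, and each of the other seeds in 1. Entries were counted without merging repeats of the same microRNA.

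A probe entered the test of a tissue when its Cy5 signal cleared the background on 5 or more of the 20 arrays. Of the 25 probes, 20 passed in lung, 16 in liver and 20 in forestomach, 16 passed in all 3 tissues and 23 in at least 1. Malat1 and Neat1 passed with all of their 4 and 6 probes in every tissue, while Kcnq1ot1 passed with 5, 2 and 2 of 7, Meg3 with 1, 1 and 3 of 3, and H19 with 4, 3 and 5 of 5 in lung, liver and forestomach. For each gene the probe with the brightest Cy5 signal over all arrays is called its lead probe. The share of all probes well above background ran from 35 to 58.7% on lung arrays, from 36.3 to 48.4% on liver arrays and from 21.4 to 53.4% on forestomach arrays, so forestomach arrays differed most in how much they detected.

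Some arrays stood apart from their tissue and touch the values below. Defining markers of lung, liver and forestomach squamous epithelium (5 genes each) were above background on every array of their own tissue, with mean log2 ratios of at least 7.02, 7.20 and 4.74. The lung array of D0 mouse 1 also held squamous markers at 5.09, against -0.61 to -0.03 on the other 19 lung arrays, and 6 of 6 skeletal muscle markers at 5.17. The forestomach array of D0 mouse 2 held lung markers at 5.98 and the lung array of D3 mouse 20 held liver markers at 5.05. On forestomach arrays the mean of 4 glandular stomach markers ran from 0.30 to 7.34, that of 4 fat markers from 0.08 to 6.36 and that of the liver markers from 0.03 to 5.41. On lung arrays the fat markers ran from 0.58 to 5.27.

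**Figure D1:**
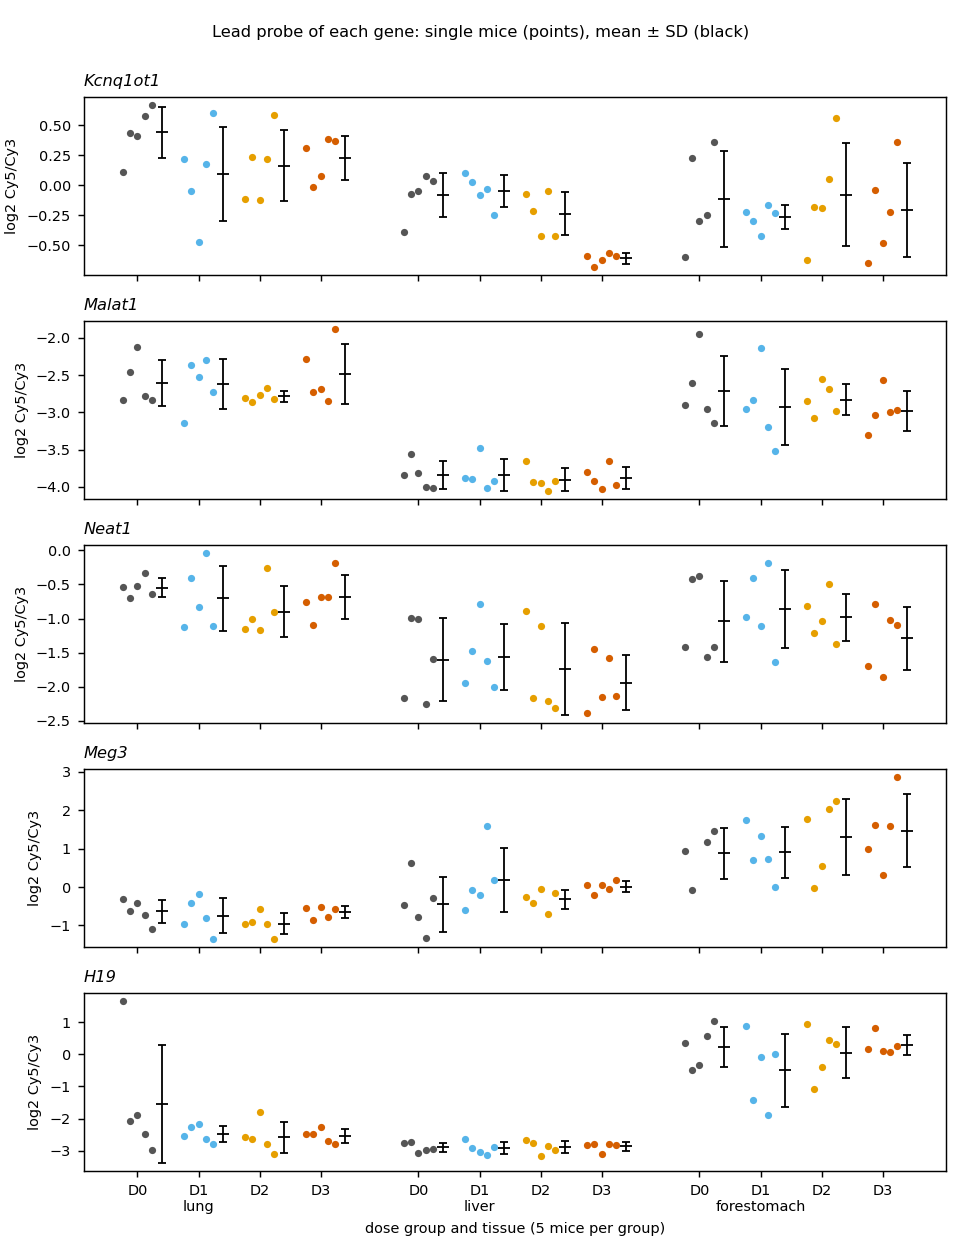
Log2 Cy5/Cy3 of the lead probe of each gene (vertical axes, each with its own scale) for single mice (points) by dose group and tissue, with mean ± SD in black (n = 5 per group, 4 for Meg3 in D0 forestomach). Malat1 sits between -4.06 and -3.48 in all 20 livers, H19 is high in forestomach and in the lung of D0 mouse 1 (1.66), and the Kcnq1ot1 values of the 5 D3 livers lie below the other liver groups.

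For Malat1, Neat1, Meg3 and H19 the largest differences lay between tissues and not between doses. In control mice Malat1 and Neat1 were higher in lung than in liver, and Meg3 and H19 were higher in forestomach than in liver or lung. Of the 5 Kcnq1ot1 probes tested between lung and liver, 2 were above background on no D0 liver array and give only a bound. The other 3, of which 2 passed the filter in liver, were 0.07 to 0.52 higher in lung. The 2 Kcnq1ot1 probes measured in both D0 lung and D0 forestomach did not share a direction. In the limma fit over all 60 arrays with slide as a block, a probe was called where its adjusted p reached 0.05 and its change reached 1.5-fold. Between D0 lung and D0 liver 12 of 20 member probes were called, all higher in lung, where 45.4% of all probes tested were called and 25.9% were called higher. Between lung and forestomach 7 of 23 were called, all lower in lung (background 35.4%, lower 15.5%), and between liver and forestomach 14 of 20, all lower in liver (background 45.4%, lower 24.2%). Of the 14, 2 of Meg3 and 2 of H19 were above background on no D0 liver array. They entered the contrast through forestomach, so their direction follows from the filter. The 7 were 2 of Meg3 and 5 of H19, of which only 1 and 4 probes passed the filter in lung. The selection used the same contrasts, so nothing is read from these shares. Liver arrays lay on slides of their own, so slide and tissue cannot be told apart in either contrast with liver.

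In none of the 9 dose contrasts was a member probe called in the limma fit by both limits. By adjusted p alone 1 of 16 passed at D3 in liver (background 0.753%) and 1 of 20 at D1 in forestomach (background 11.6%). The share of all probes called was 0%, 0% and 0.00644% for D1, D2 and D3 in lung, 0.0347%, 0.0463% and 0.278% in liver, and 5.26%, 0.215% and 0% in forestomach. At an unadjusted p under 0.05 between 894 (liver D1) and 6722 (forestomach D1) of all probes stood out. Over the 168 member values of the dose contrasts the median change was -0.11 and the range -1.45 to 0.68 on the log2 scale. A change of 1.5-fold or more was reached by 20 of the 168: all 12 of H19 in lung and 5 of H19 in forestomach, all lower, and 1 of Meg3 in liver and 2 of Meg3 in forestomach, all higher. The 12 H19 lung values share the lung array of D0 mouse 1, without which the 4 differences of the D3 and D0 means were -0.25 to -0.19. Each dose held its own column position on all slides, so position and dose cannot be told apart.

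Malat1, the speckle RNA, had its lowest mean in liver at every dose. With the lead probe, the D0 livers were at -3.84, -3.56, -3.81, -4.01 and -4.02, and the D0 lungs at -2.83, -2.46, -2.12, -2.78 and -2.84. The D0 forestomachs were at -2.90, -2.60, -1.94, -2.96 and -3.14. The liver did not overlap with either of the other tissues, while lung and forestomach overlapped widely. The difference of lung minus liver was 1.24 ± 0.21 (SE), or 2.36-fold, that of liver minus forestomach -1.13 ± 0.21, or 2.19-fold, and that of lung minus forestomach 0.10 ± 0.17. The 4 probes differed by 1.95- to 2.54-fold between liver and lung and by 2.07- to 2.40-fold between liver and forestomach.

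The changes of the Malat1 lead probe at D3 were 0.12 ± 0.17 in lung, -0.04 ± 0.17 in liver and -0.27 ± 0.17 in forestomach, and no dose group was free of overlap with D0. Without D3 mouse 20, whose lung array held the liver markers and was the highest D3 lung at -1.88, the lung change was -0.08, and without D0 mouse 2 the liver change was 0.04. All 12 dose changes of the 4 probes in forestomach were negative, from -0.42 to -0.12. Within the 5 forestomach slides the lead probe at D1 minus D0 was -0.05, -0.19, -0.24, -0.24 and -0.37, while D2 and D3 differed from D0 in both directions. In forestomach 1 slide held the highest Malat1 array of each dose: mouse 3 at -1.94, mouse 8 at -2.13, mouse 13 at -2.55 and mouse 18 at -2.56, with a slide mean 0.57 above the group means. The lungs of the same 4 mice on that slide lay 0.09 above their group means. Each of these slides held the lung and forestomach of the same mice, so mouse and slide cannot be told apart. The 4 Malat1 probes ran together, with correlations of 0.948 to 0.976 over the 60 arrays, which share libraries and dyes.

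Neat1, the paraspeckle scaffold, varied widely between livers of the same dose. The D0 livers were at -2.17, -0.99, -1.01, -2.26 and -1.59, and the D1 livers at -1.94, -1.47, -0.79, -1.62 and -2.01. The D2 livers were at -0.89, -2.17, -1.11, -2.21 and -2.31, and the D3 livers at -2.38, -1.45, -2.15, -1.58 and -2.14. Livers at -0.99 or higher occurred in D0, D1 and D2, while the highest D3 liver was at -1.45. Livers at -2.01 or lower occurred in every dose group. The highest of the 20 livers (mouse 8) and the lowest (mouse 16) differed 3.01-fold. The SD within groups was 0.55 in liver, larger than for 98.5% of the probes tested there, whose median was 0.19. In lung it was 0.35 (84.4%) and in forestomach 0.50 (81.6%).

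All 6 Neat1 probes gave nearly the same order of livers. Their deviations from the group means correlated at 0.867 to 0.996 with each other over the 20 livers, and each spanned 2.66- to 3.38-fold. The lowest liver was mouse 16 with 5 of the 6 probes and mouse 4 with the other, and the highest was mouse 8, 2 or 11. By liver slide the mean deviations of the lead probe were -0.05, 0.18 and -0.10, which is small beside the spread between mice on the same slide.

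**Figure D2:**
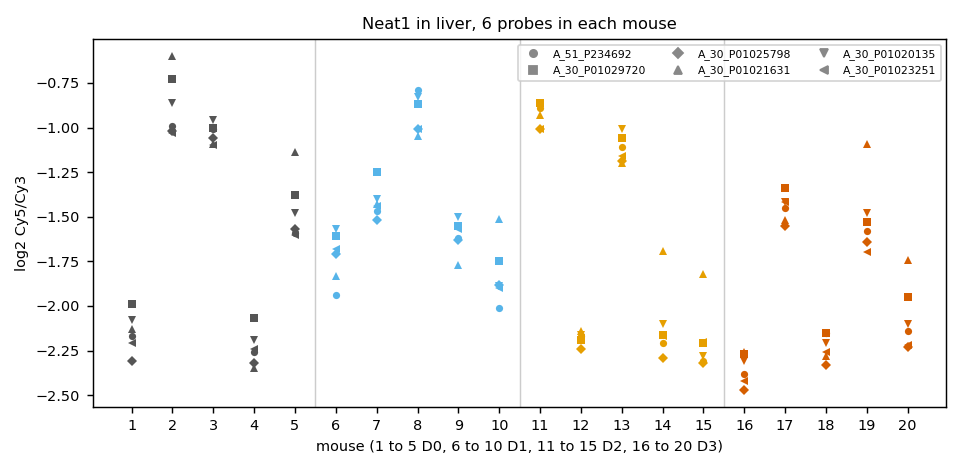
Log2 Cy5/Cy3 of the 6 Neat1 probes (symbols) in the liver of each of the 20 mice (horizontal axis, colours and vertical lines separate the doses). The 6 symbols of a mouse lie close together, while mice of the same dose differ and the 20 livers are spread over a range of 2.66- to 3.38-fold depending on the probe.

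Against the other tissues Neat1 was higher in D0 lung (-0.54, -0.70, -0.52, -0.33 and -0.64) than in D0 liver, by 1.07 ± 0.34, and the groups did not overlap. The 6 probes differed by 1.66- to 2.61-fold in this contrast. Liver minus forestomach was -0.57 ± 0.34 with the lead probe, with overlap. The dose changes of the lead probe at D3 were -0.13 ± 0.27 in lung, -0.30 ± 0.28 in liver and -0.25 ± 0.27 in forestomach. With 1 mouse left out they ranged from -0.32 (without mouse 20) to -0.01 (without mouse 17) in lung, from -0.49 (without mouse 4) to -0.11 (without mouse 2) in liver and from -0.46 (without mouse 4) to -0.05 (without mouse 3) in forestomach. All 6 probes, which share the same arrays and D0 mice, were below D0 at D3 in each tissue, by 0.02 to 0.43. At D1 all 6 were above D0 in forestomach, by 0.06 to 0.42, and 5 of the 6 in liver. All groups of the lead probe overlapped with their controls. Within the 3 liver slides the D3 minus D0 difference was 0.26, -0.51 and -0.57.

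Kcnq1ot1, the silencing transcript of the Kcnq1 cluster, had the largest fall with dose in liver among the 5 lead probes. The D0 livers were at -0.39, -0.07, -0.05, 0.08 and 0.04, and the D1 livers at 0.10, 0.03, -0.08, -0.03 and -0.25. The D2 livers were at -0.07, -0.21, -0.42, -0.05 and -0.42, and the D3 livers at -0.59, -0.68, -0.62, -0.56 and -0.59. All 5 D3 livers lay below all 15 other livers, and 2.73% of all probes tested had no overlap between D3 and D0 in liver, 1.82% with D3 lower. The change at D3 was -0.53 ± 0.13, or 1.44-fold, and the slope over the 4 doses was -0.0229 ± 0.00517 log2 units per mg/kg-bw/day. Slopes were called by an adjusted p of 0.05 with no minimum fold. Of the member slopes limma called 1 of 16 in liver, this one (background 1.47%, lower 0.946%). In the fit of all 60 arrays it was not called with no block for slide, with mouse as the block or with the Feature Extraction processed signals. It was called in 8 of 11 other settings, among them each tissue alone with no block, and with each of 20 mice left out. Limma called 0 in lung (background 0.0322%, 1844 probes at an unadjusted p under 0.05) and 0 in forestomach (0.183%, 4131 probes). The selection used these values, and nothing is read from the counts.

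The change did not appear with the second Kcnq1ot1 probe that passed in all tissues. That probe was dimmer, with a mean log2 Cy5 signal of 7.00 in liver against 8.84 for the lead probe. The part of its dimness in its smaller change was not tested. With A_30_P01026203 the D0 livers were at -0.16, -0.12, -0.09, -0.28 and -0.18 and the D3 livers at -0.07, -0.33, -0.46, -0.27 and -0.03, a change of -0.09 ± 0.10 with wide overlap. The deviations of the 2 probes from their group means correlated at 0.255 over the 20 livers, -0.587 over the lungs and -0.427 over the forestomachs. Over all arrays their correlation was -0.382. Those of the Malat1, Neat1 and H19 probes correlated at 0.784 or more over all arrays and at 0.468 or more within a tissue. Those of the Meg3 probes correlated at 0.621 or more over all arrays and down to -0.0278 in lung. Within the 3 liver slides the D3 minus D0 difference of the lead probe was -0.24, -0.64 and -0.56, and that of the second probe -0.03, -0.28 and 0.00. Without D0 mouse 1, whose liver was at -0.39, the change of the lead probe became -0.63. The position of either probe along the long transcript was not used here, and which of them follows the full transcript was not tested.

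**Figure D3:**
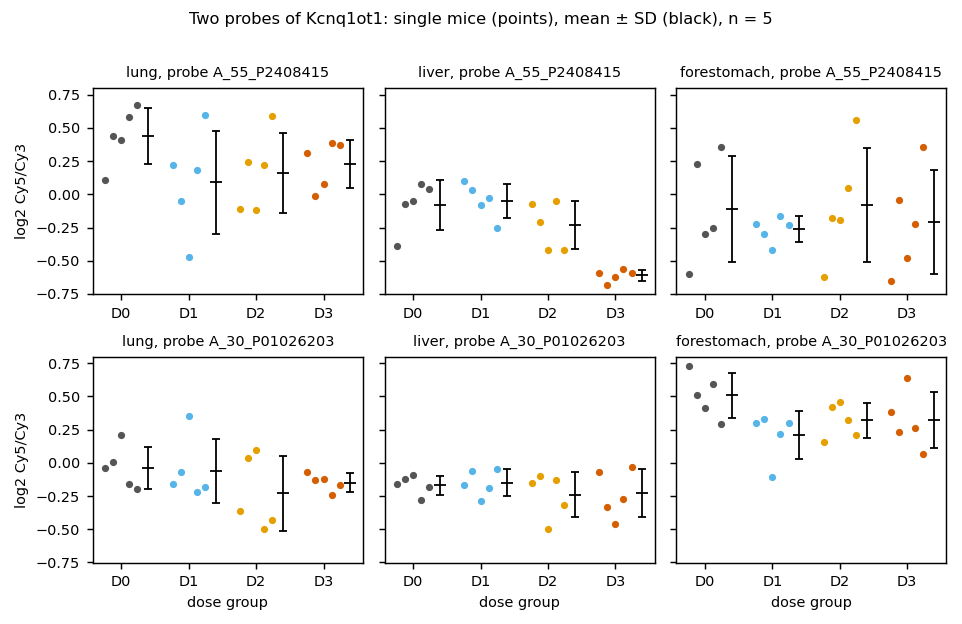
Log2 Cy5/Cy3 of the lead probe (upper row) and the second probe (lower row) of Kcnq1ot1 for single mice (points) by dose in lung, liver and forestomach, with mean ± SD in black (n = 5). In liver the lead probe is at -0.68 to -0.56 in all D3 mice, while the second probe overlaps with its controls at every dose.

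The 2 probes also ordered the tissues differently. In D0 mice lung minus forestomach was 0.56 ± 0.13 with the lead probe and -0.54 ± 0.10 with the second, and liver minus forestomach was 0.04 ± 0.16 and -0.66 ± 0.12. In lung the lead probe was at 0.11, 0.44, 0.41, 0.58 and 0.67 in D0 and its mean change was -0.35 at D1, -0.28 at D2 and -0.22 at D3, all with overlap. Each lung slide held 1 mouse of each dose, and within the 5 slides D2 minus D0 was -0.23, -0.54, -0.36, -0.21 and -0.08, while D1 and D3 were each below D0 on 4 of the 5. In forestomach the second probe was at 0.73, 0.51, 0.41, 0.59 and 0.29 in D0 and at 0.30, 0.33, -0.11, 0.22 and 0.30 in D1, a change of -0.30 ± 0.10 with overlap. The lead probe also differed by slide in both tissues: the slide of mice 5, 10, 15 and 20 was the highest, 0.32 above the group means in lung and 0.43 in forestomach. The 3 other Kcnq1ot1 probes that passed did so in lung alone, on 7 or 8 of 20 arrays, and changed by -0.19 to 0.05 there at D3.

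Meg3, the maternal transcript of the Dlk1 cluster, was highest in forestomach. The D0 forestomachs were at 0.95, -0.07, 1.18 and 1.45 (mouse 3 was missing because its spot was marked as uneven), and the D0 lungs at -0.30, -0.63, -0.42, -0.73 and -1.10. The D0 livers were at -0.47, 0.63, -0.79, -1.33 and -0.28. Lung and forestomach did not overlap, and the liver of mouse 2 reached into the forestomach range. Lung minus forestomach was -1.51 ± 0.38, or 2.85-fold, and liver minus forestomach -1.35 ± 0.46, or 2.54-fold. With the Feature Extraction processed signals these were -2.67 and -2.21. The 2 dimmer Meg3 probes were well above background on 13 and 6 forestomach arrays, and on 4 and 0 lung arrays.

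At every dose the Meg3 values of the lead probe overlapped with those of the controls in all 3 tissues. Within slides, which held 1 mouse of each dose, D2 and D3 in forestomach were above D0 on all 4 slides with a D0 value, by 0.05 to 0.84 and by 0.04 to 1.69, D1 was above D0 on 2 of the 4, and D2 in lung was below D0 on all 5. The D2 forestomachs were at 1.78, -0.02, 0.55, 2.02 and 2.23, a change of 0.44 ± 0.38. The D3 forestomachs were at 0.99, 1.62, 0.31, 1.58 and 2.86, a change of 0.60 ± 0.38, and the D3 livers at 0.06, -0.20, 0.06, -0.06 and 0.18, a change of 0.49 ± 0.37. With 1 mouse left out these changes ranged from 0.21 (without mouse 20) to 0.88 (without mouse 18) in forestomach, where that without mouse 2 was 0.33, and from 0.27 (without mouse 4) to 0.76 (without mouse 2) in liver. With processed signals the liver change was 1.16. The D1 livers were at -0.59, -0.07, -0.20, 1.58 and 0.18, a change of 0.68 ± 0.37 in which mouse 9 was the highest liver of all 20. The SD within groups was 0.57 in liver, larger than for 98.6% of the probes tested there, and single groups ran from an SD of 0.14 in D3 to 0.83 in D1. In lung the changes were -0.10, -0.31 and -0.01 at D1, D2 and D3.

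H19 was low in liver and lung and high in forestomach. Over all doses the lead probe ran from -3.17 to -2.65 in the 20 livers, and from -3.11 to -1.80 in 19 of the 20 lungs. The D0 forestomachs were at 0.36, -0.48, -0.34, 0.56 and 1.03. The groups of D0 liver and D0 forestomach did not overlap, and liver minus forestomach was -3.11 ± 0.49, or 8.64-fold, with the lead probe and from 4.23- to 18.60-fold over the 3 probes measured in both tissues. With processed signals the lead probe gave -3.93. The other 2 H19 probes were well above background on 0 of 20 liver arrays and give no fold there.

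The lung of D0 mouse 1 was the exception, at 1.66 with the lead probe. The other D0 lungs were at -2.07, -1.89, -2.49 and -2.98. All 4 H19 probes that passed in lung were at 1.66 to 2.53 in that mouse and at -0.81 or lower in the other 19 lungs. With this array the D0 lungs averaged -1.55 ± 1.85 (SD, n = 5) and the D3 change was -0.99; without it they averaged -2.36 ± 0.48 (n = 4) and the difference of the D3 and D0 means was -0.19 with the lead probe and down to -0.25 with the others. Between tissues, lung minus liver at D0 was 1.33 ± 0.49 with it and 0.59 without, and lung minus forestomach -1.78 ± 0.40 and -2.53. This is the array that held squamous and skeletal muscle markers beside lung markers at 7.04, and their part in its H19 value was not tested.

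In forestomach H19 spread widely within dose groups. The D1 forestomachs were at 0.89, -1.42, -0.07, -1.89 and 0.00, the D2 forestomachs at 0.94, -1.07, -0.40, 0.45 and 0.34, and the D3 forestomachs at 0.17, 0.82, 0.11, 0.07 and 0.25. The change was -0.73 ± 0.40 at D1 and 0.06 ± 0.40 at D3, both with overlap. The change at D3 was -0.17 without mouse 17 and 0.27 without mouse 5. The 3 lowest arrays, mice 9, 7 and 12, held glandular stomach markers at 7.34, 6.77 and 6.47, and the 4 highest, mice 5, 11, 6 and 17, held them at 1.05, 0.89, 1.47 and 0.30. Mice 10, 14 and 19 had glandular markers at 6.85, 6.12 and 6.01 and H19 at 0.00, 0.45 and 0.07. Squamous markers were between 4.74 and 6.34 on all 20 forestomach arrays. The part of the tissue makeup in the H19 values was not tested. The 5 H19 probes ran together over the forestomachs, with deviations that correlated at 0.954 to 0.992.

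**Figure D4:**
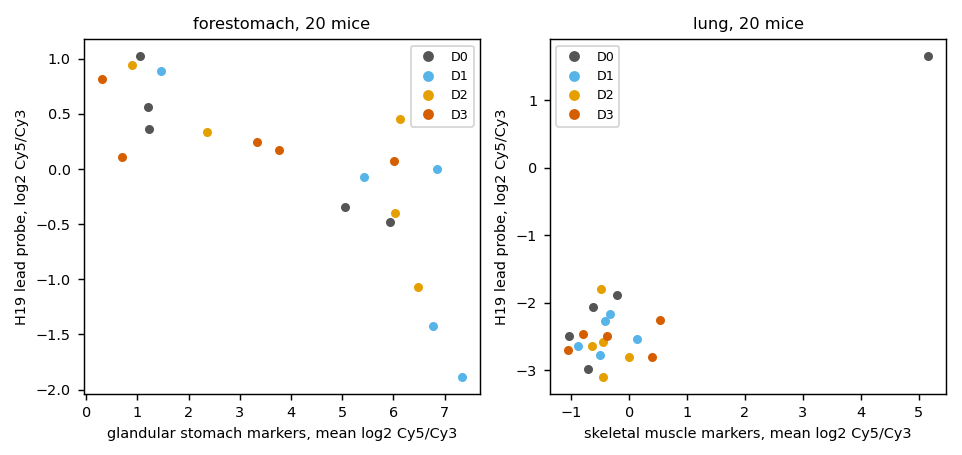
Log2 Cy5/Cy3 of the H19 lead probe (vertical axes) against the mean log2 Cy5/Cy3 of glandular stomach markers in 20 forestomachs (left) and of skeletal muscle markers in 20 lungs (right), each point a mouse coloured by dose. The forestomachs below -1 in H19 are those of mice 9, 7 and 12 with glandular markers of 6.47 or more, and the lung of D0 mouse 1 stands alone at 5.17 for muscle markers and 1.66 for H19.

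Whether the D3 change differed between tissues was asked by the interaction terms of the same fit. No member probe was called in any of the 3 terms, of 20, 23 and 20 tested, and the background was 0% in each, with 1909, 1396 and 2507 of all probes at an unadjusted p under 0.05. For the Kcnq1ot1 lead probe the D3 change was -0.53 in liver, -0.22 in lung and -0.09 in forestomach.

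**Figure D5:**
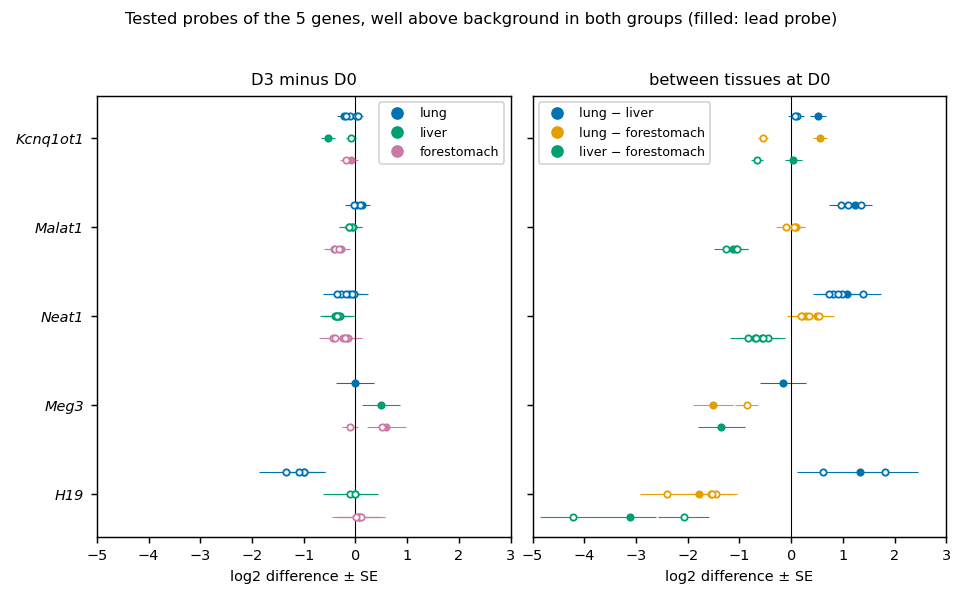
Log2 differences ± SE from the fit for every tested probe that was well above background on any array of each group (filled: lead probe), as D3 minus D0 in each tissue (left) and between tissues at D0 (right). Dose changes run from -0.42 to 0.12 for Malat1 and from -0.43 to -0.02 for Neat1, while lung minus liver is 0.96 to 1.34 and 0.73 to 1.39, the H19 lung changes of -0.99 and below include D0 mouse 1, and the Kcnq1ot1 lead probe alone lies at -0.53 in liver.

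Genes that work with these RNAs or lie beside them came from 9 lists, of which 69 to 76 genes were tested per contrast. At D3 in liver 1 of 69 rose and 1 fell (2.9%, background 0.278%), in forestomach 2 of 72 rose at D1 (2.78%, background 5.26%) and 1 at D2 (1.39%, background 0.215%), and 0 were called in the other 6 dose contrasts by limma. Srsf5, a splicing factor of nuclear speckles, rose in liver from -1.30, -2.28, -1.33, -1.13 and -1.16 in D0 to -0.77, -0.51, -0.91, -0.34 and -0.33 in D3, without overlap, by 0.89 ± 0.18 (adjusted p = 0.0117). Tug1, another nuclear long noncoding RNA, fell from -0.01, 0.42, -0.07, 0.52 and 0.56 to -0.35, -0.24, -0.10, -0.42 and -0.58, without overlap, by 0.61 on the log2 scale (SE 0.15, adjusted p = 0.0426). The liver slopes of both were also called, at 0.0337 and -0.0245 log2 units per mg/kg-bw/day, and so was that of Srsf2, a further splicing factor of speckles, at -0.0131. Of 11 other settings the slope of Srsf5 was called in 9, that of Tug1 in 6 and that of Srsf2 in 4, and with each of 20 mice left out in 20, 15 and 7. None of the 14 paraspeckle protein genes passed at D3 in liver, with a median change of 0.10. With each tissue fitted alone 0 of the 5 list calls of the dose contrasts remained, and with no block for slide, or with mouse as the block, 1 did.

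For the mRNAs of proteins that share bodies with Neat1 and Malat1, the background between D0 lung and liver was 45.4% of all probes called and 25.9% called higher. Among the paraspeckle genes 6 of 14 were called higher and 1 lower in D0 lung than in liver, with a median difference of 0.495 against 0.07 over all probes. Nono, a core paraspeckle protein gene, was higher in lung by 1.06 ± 0.09 (adjusted p = 1.96e-15), and its partner Pspc1 by 0.69 ± 0.14 (adjusted p = 2.94e-05). Sfpq, which Neat1 paraspeckles require, differed by 0.46 ± 0.15, under 1.5-fold. Of the speckle genes 8 of 16 were called higher and 1 lower in lung, beside the same background. Son, which organises speckles, was higher by 1.03 ± 0.13 (adjusted p = 5.35e-10), and Srrm2, the other main scaffold of speckles, was lower by 0.62 on the log2 scale (SE 0.15, adjusted p = 0.000233).

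Genes beside the imprinted RNAs were counted by cluster. In the Kcnq1 cluster 5 of 9 genes were called higher and 1 lower in D0 lung than in liver (background 45.4%, higher 25.9%). Cdkn1c, a cell cycle inhibitor that Kcnq1ot1 silences on the paternal chromosome, was at 3.44, 3.64, 3.18, 3.79 and 4.04 in D0 lung and at 1.16, 0.65, 0.87, 0.78 and 0.76 in D0 liver, a difference of 2.76 ± 0.28 (adjusted p = 1.13e-12). Kcnq1, the potassium channel gene in whose span Kcnq1ot1 lies, was called higher in forestomach at D1, by 2.59 ± 0.76 (adjusted p = 0.019). Its D0 forestomachs were at 0.46, 4.29, 3.53, 0.03 and 0.60 and its D1 forestomachs at 0.29, 6.11, 3.21, 6.84 and 5.39, with overlap, and the arrays above 3 in both groups held glandular stomach markers at 5.05 to 7.34 and the others at 1.05 to 1.47. The part of those markers in the Kcnq1 change was not tested. Cdkn1c was not called in any dose contrast. Gnas, an imprinted gene for a signalling G protein, was called higher in forestomach at D1 by 0.73 ± 0.17 (adjusted p = 0.00302) and at D2 by 0.81 ± 0.17 (adjusted p = 0.0188), and its highest D1 values, 0.13 and -0.17, were those of mice 9 and 7. Glandular stomach markers were at 7.34 and 6.77 in those mice. In D0 they were at 1.22, 5.93, 5.05, 1.20 and 1.05, in D1 at 1.47, 6.77, 5.43, 7.34 and 6.85 and in D2 at 0.89, 6.47, 6.03, 6.12 and 2.35, and their part in the Gnas changes was not tested.

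Of 4 tested neighbours of Meg3, 2 were called lower and 1 higher in D0 lung than in forestomach (background 35.4%, lower 15.5%). Dlk1, a growth regulator expressed from the paternal chromosome, differed by -0.79 ± 0.15 (lung minus forestomach, adjusted p = 1.07e-05), and Mirg, a microRNA host downstream of Meg3, by -0.86 ± 0.18 (adjusted p = 7.31e-05). Wars, a tRNA synthetase gene named here after its values were seen, differed the other way by 1.22 ± 0.15 (adjusted p = 4.87e-10). Beside H19, 1 of 5 tested genes was called higher in D0 lung than in liver (background 45.4%, higher 25.9%). In lung 1 of 5 was called higher than in forestomach (background 35.4%), and 1 of 4 was called lower in liver than in forestomach (background 45.4%, lower 24.2%). All of these calls were of Lsp1, a leukocyte gene named here after its values were seen, with differences of 4.69 ± 0.26, 1.66 ± 0.21 and -3.03 ± 0.26. Igf2 was well above background on 6 lung, 1 liver and 3 forestomach arrays. It was tested only in the contrasts of lung, alone or with another tissue at D0, and was called in none of these. In the list of snoRNA host transcripts, which also held the microRNA host Mirg, 7 of 15 had a tested probe. All 7, Mirg among them, were called lower in lung than in forestomach (background 35.4%, lower 15.5%), with a median difference of -0.91 against 0.03 over all probes. Against forestomach 6 of the 7 were also called lower in liver (background 45.4%, lower 24.2%), with a median of -0.88. Between lung and liver 0 of the 7 were called (background 45.4%). Xist, which coats the inactive X chromosome in females, was well above background on 0 of 60 arrays from these male mice. Rian and Gas5 had no named probe.

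The genes with values most like those of each lead probe were found among 15532 genes, by Pearson correlation over the 60 arrays (59 for Meg3), all of which share slides, dyes and tissues. For Malat1 they were Adgra2 (0.935), P3h3 (0.922) and Tnfrsf10b (0.917), for Neat1 Cdk11b (0.78), Mrtfa (0.779) and Tcf25 (0.779), and for Kcnq1ot1 Nktr (0.832), Acin1 (0.813) and Mdm4 (0.803). For Meg3 they were Npas4 (0.881), Ccdc106 (0.871) and Bmp7 (0.871). After the 12 group means were subtracted, which leaves differences between mice of a group, they were Clk4 (0.626), Hnrnph1 (0.625) and Pisd-ps1 (0.625) for Neat1, Lrp6 (0.826), Timmdc1 (0.81) and Tcf4 (0.791) for Kcnq1ot1, Sap25 (0.752), Cep295 (0.742) and Mmp11 (0.738) for Malat1, and Mrgprf (0.727), Npas4 (0.716) and Vwa1 (0.711) for Meg3. Clk4 is a kinase of splicing factors and Hnrnph1 a splicing regulator.

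For H19 the most similar genes were found with and without the lung array of D0 mouse 1. Over 60 arrays they were Tnni2 (0.957), a troponin of fast skeletal muscle, Car12 (0.951) and Rapgefl1 (0.95), and after group means were subtracted Cdsn (0.934), a protein of cornified epithelium, Car12 (0.921) and Crabp2 (0.904). Without the lung array of D0 mouse 1 they included Wnt4 (0.981) and Dkkl1 (0.978), and after group means were subtracted they were Hoxc6 (0.904), Cd109 (0.903) and Tmem43 (0.89). Without that array the r of Tnni2, Car12 and Rapgefl1 by values was 0.958, 0.974 and 0.966, at places 59, 11 and 30. After group means Cdsn, Car12 and Crabp2 were then at 0.881, 0.888 and 0.793, at places 7, 4 and 61.

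The Cy3 reference gave a firm denominator for most of these probes: 18 of 25 were well above background in Cy3 on all 60 arrays. The other 7 were 5 probes of Kcnq1ot1 and 2 of Meg3, above background in Cy3 on 2 to 59 arrays. No lead probe was among them, and Meg3 had the dimmest lead probe in Cy5, above background on 17 lung, 18 liver and 19 forestomach arrays.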

How the data were processed

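Total RNA of 60 tissue samples (20 mice, 3 tissues) was hybridised in Cy5 against a universal reference in Cy3 on Agilent 2-colour arrays, with no dye swap. Per the file headers, the deposited spot intensities were median signals extracted with Feature Extraction 10.7.3.1, not yet normalized, and the authors also deposited normalized log2 ratios, whose column medians were -0.0413 to -0.0143, used here as an alternative. The number of arrays limits the precision.

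Spots marked non-uniform (0.0361% of values) were set missing, and median signals were normalized by loess within arrays without background subtraction (limma 3.58.1, R 4.3.3). The resulting log2 ratios correlated at 0.992 to 0.999 with the deposited ones. Of 55681 probes, 26413 were named by RefSeq accession (RefSeq table of GRCm38.p6), and probes the files name H19, NEAT1, NEAT2 or KCNQ1ot1 were added. 2 further probes, whose accession the table did not pair with a gene, were not counted, although 1 of them correlated at 0.989 with the H19 lead probe, so the count of H19 probes may be short. Probes well above background in Cy5 on 5 arrays of a tissue were tested (31041 in lung, 25907 in liver, 25107 in forestomach). All 12 groups entered 1 limma fit with slide as a random block (8 slides, correlation 0.273), with Benjamini-Hochberg adjustment per contrast over all probes tested and SE from the fit; the procedure was tested on simulated data.

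The members and lists were chosen with earlier results of these data known. The text covers all member probes, by value, range or count, and names the list genes set down with the design, every list gene called with dose, and the 3 genes most correlated with each lead probe, of which 1 is not reported here. Each mouse gave all 3 tissues, which pairs the samples by mouse: the deviations from group means in the tissues of a mouse correlated at a median of 0.271 for the lung with its forestomach, 0.0733 for the lung with its liver and 0.00603 for the liver with its forestomach. Alternatives covered blocks, signals, normalization, filters, variance models, other probes and leaving out each mouse; leaving out the lung array of D0 mouse 1 was added after seeing the data.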

Additional observations from a re-analysis of the deposited data

Results flagged for a closer look

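In 4 of 60 groups of lead probe values, the highest or lowest mouse stood farther from its nearest neighbour than Dixon's limit for its group allows; chance alone marks about 1 in 20 groups. H19 in the lung of D0 mouse 1 was at 1.66, with the next D0 lung at -1.89, and is the array with squamous and muscle markers described above. Malat1 in the liver of D1 mouse 8 was at -3.48, with the next at -3.88. H19 in the liver of D3 mouse 18 was at -3.10, with the next at -2.84, and H19 in the forestomach of D3 mouse 17 was at 0.82, with the next at 0.25. Mouse 17 had the lowest glandular stomach markers of the 20 forestomachs (0.30), and their part in its value was not tested.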

How the results depend on the processing

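The count of member probes called with dose was 0 under every alternative run, except that it was 1 without D0 mouse 1 (range 0 to 1 over the 20 mice left out in turn). The count of dose slopes called was 1. In the fit of all 60 arrays it was 0 with no slide block, with the Feature Extraction processed signals and with mouse as the block that pairs the tissues. With each tissue alone and no block the count stayed 1, and the cause was not tested. The count of tissue differences called was 33, and 21 when probes had to be above background on all 20 arrays of a tissue, where fewer probes were tested. The 33 include 2 Meg3 and 2 H19 probes above background on no D0 liver array, which entered the contrast of liver with forestomach through forestomach. The count was 35 with the mouse block and 26 to 36 when mice were left out. The count of list genes called with dose was 5. It was 1 with no slide block, 0 with slide fixed in each tissue alone, 0 with each tissue alone and no block, 3 with processed signals and 1 with the mouse block. Leaving out mice gave 2 to 5, with 2 without mouse 2 or 4 and 3 without mouse 1, 9, 14, 19 or 20. The D3 change differed between tissues for 0 member probes throughout. The mouse block left the counts of member dose changes, tissue differences and tissue interactions within 1.5 times.

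Counts over all probes moved more, by over 1.5 times in 172 of 474 recounts. With no slide block the 72 probes called at D3 in liver became 5, the 1321 at D1 in forestomach 835, the 54 at D2 in forestomach 0 and the 382 liver slopes 60. With the mouse block they became 7, 830, 0 and 63, and with each tissue alone and no block 0, 0, 0 and 20. Leaving out mice gave 20 (without mouse 20) to 179 (without mouse 1) at D3 in liver and 241 (without mouse 9) to 2382 (without mouse 6) at D1 in forestomach. Of 1045 recomputed member values, 1022 stayed within 1 SD and 23 moved. Small changes turned sign with a mouse left out, such as Malat1 in lung at D3 (-0.08 to 0.24) and H19 in forestomach at D3 (-0.17 to 0.27). Processed signals moved Meg3 to 1.16 for D3 minus D0 in liver and to -2.67 for lung minus forestomach. Contrasts between tissues were not run with each tissue fitted alone, which cannot give them. Signal over background limits the dimmer Kcnq1ot1 and Meg3 probes.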
